A study of Mus musculus with 18 samples.

Results

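The genes described here encode Polycomb repressive complex 2 (PRC2), measured in B cells from the spleens of Zbtb24 B-CKO mice and their controls before and after stimulation with lipopolysaccharide (LPS). They were chosen by name as the rows of 10 genes, Ezh1, Ezh2, Eed, Suz12, Jarid2, Phf1, Phf19, Mtf2, Rbbp4 and Rbbp7, out of 16545 genes in the expression table, and all 10 were present. Each was above 0 in every library, with a lowest value of 4.39 and a highest of 216.46 FPKM, the unit of fragments mapped to a transcript after correction for its length and for library size.

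PRC2 is the enzyme complex that methylates lysine 27 of histone H3 (H3K27), a mark of silenced genes. Its catalytic subunit is either EZH2 or EZH1, which works only together with EED and SUZ12, and the histone-binding proteins RBBP4 and RBBP7 join the core. Accessory proteins divide the complex into different forms: PHF1, MTF2 and PHF19, the Polycomb-like proteins, belong to PRC2.1, and JARID2 belongs to PRC2.2. In B cells EZH2 is known for its high level in dividing germinal centre cells, whereas EZH1 is the form of resting and differentiated cells.

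The data were 18 RNA-seq libraries in 6 groups of 3. B cells were purified from spleens of Zbtb24 +/+ controls and of littermate Zbtb24 B-CKO mice, Zbtb24 loxp/loxp, both carrying a Cre active in B cells, on a C57BL/6 background, and were sampled at day 0 before LPS (0 h) and after 1 day (24 h) and 2 days (48 h) of LPS in vitro. In B-CKO mice Cre deletes exon 2 of Zbtb24, which holds the translation start, in B cells. The ages of these mice are not given in the sources used here. The labels do not say whether libraries with the same number at different times came from the same mouse.

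Zbtb24 was checked first. It was at 49.56, 49.62 and 37.05 FPKM in the 3 control libraries at 0 h and at 14.33, 10.53 and 12.57 FPKM in the 3 B-CKO libraries. The ranges did not overlap at any time, with control and B-CKO means of 17.6 and 10.9 FPKM at 24 h, then 15.2 and 10.4 FPKM, although these values cover the whole gene and not exon 2 alone. Adjusted p was 0.12, 0.0586 and 0.267 at 0, 24 and 48 h (limma, Benjamini-Hochberg over all genes tested). Libraries numbered 1 of both genotypes stood apart at 0 h, with Kdm6b at 39.35 and 36.87 FPKM against 150.62 to 257.94 FPKM in the other four. Relative depth, estimated from the steps between low values of 64 genes, was 0.883 to 0.916 at 0 h and 1.016 to 1.072 later. This is a rough estimate, since only 68.7% of their nonzero values were whole steps within 5%. The B cell genes Cd79a and Cd22 were among the most abundant markers in every group.

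The sequence around the start of 3 members is shown because it holds the letters of an E2F site, the element bound by the E2F factors of the cell cycle. The 12 promoters of the 10 genes were taken from RefSeq on GRCm38.p6, from 250 bases before to 50 bases after the start. They were searched on both strands for TTTCCCGC, TTTGGCGC, TTTCGCGC, TTTGGCGG and TTTCCCGG, which 3.59% of 32851 promoters of the same length contain. Capitals mark the match, each sequence is written 5′ to 3′ on the strand of the gene, and it lies at chr6:47595009-47595038 (minus strand) for Ezh2, at chr11:79992876-79992905 (plus strand) for Suz12 and at chr2:34914166-34914195 (minus strand) for Phf19.
Ezh2: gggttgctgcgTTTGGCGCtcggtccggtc
Suz12: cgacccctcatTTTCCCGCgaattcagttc
Phf19: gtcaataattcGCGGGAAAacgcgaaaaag

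The match lay at positions 4 to 11 after the Ezh2 start, at -219 to -212 in Suz12 and, read on the opposite strand, at -208 to -201 in Phf19. The start is that of the RefSeq transcript in the table, which lies 240 bases inside the span given below for Ezh2 and 377 bases inside that for Phf19, so for Phf19 the match falls within the span of the gene. In Suz12 the start is the edge of the span. No other member held one of these motifs in its window. TTTGAA, the cell cycle homology region, occurred in 3 of the 12 promoters (Eed, Suz12 and one of 2 of Mtf2), against 17.9% of all promoters, and the CCAAT box occurred in 8 of the 12, against 37.4% of all promoters. CAGGACCT, described as a ZBTB24 motif, was in none of the 12 windows and in 1.99% of all promoters. No match overlapped another. Matches are letters in a window and not measured sites.

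Ezh1 and Phf1 held none of the 4 motif types. The 120 bases before their starts are given for comparison, at chr11:101226464-101226583 (minus strand) for Ezh1 and chr17:26933007-26933126 (plus strand) for Phf1.
Ezh1: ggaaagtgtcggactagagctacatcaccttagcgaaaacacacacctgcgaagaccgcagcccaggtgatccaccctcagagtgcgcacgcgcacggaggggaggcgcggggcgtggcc
Phf1: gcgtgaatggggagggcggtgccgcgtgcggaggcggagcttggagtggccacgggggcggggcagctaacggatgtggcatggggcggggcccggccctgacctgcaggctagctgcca

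To learn how the complex changed as B cells were activated, 24 h of LPS was first compared with 0 h within each genotype. Expression of all 10 genes changed. In control cells 7 rose and 3 fell at an adjusted p under 0.05, where 26.7% of all genes tested rose and 30.7% fell. In B-CKO cells again 7 rose and 3 fell, against 27.5% and 32.3% of all genes. The median log2 difference over the 10 genes was 0.72 in control and 0.81 in B-CKO cells, beside -0.022 and -0.021 over all genes. Every log2 difference below is on the scale of log2(FPKM + 1), tested with limma, and errors are SE.

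Among the catalytic subunits, Ezh2 rose and Ezh1 fell. Ezh2 (gene ID 14056, minus strand of chr6:47530274-47595270, GRCm38) measured 11.05, 11.40 and 9.37 FPKM in control cells before LPS, 98.59, 99.20 and 101.49 FPKM after 24 h and 100.54, 105.04 and 103.93 FPKM after 48 h. The B-CKO libraries held 12.62, 11.86 and 11.15 FPKM, then 102.06, 107.07 and 105.54 FPKM and finally 106.14, 110.60 and 100.81 FPKM. Every library of 24 and 48 h lay above every library of 0 h, and the 24 and 48 h ranges overlapped. The mean rose 9.41-fold in control and 8.83-fold in B-CKO cells by 24 h, a log2 difference of 3.12 ± 0.0801 (adjusted p = 5.17e-06) and 3.04 ± 0.06 (adjusted p = 2.24e-06).

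Ezh1 (gene ID 14055, minus strand of chr11:101191115-101226463) measured 24.08, 21.33 and 22.75 FPKM in control cells before LPS, 9.30, 8.93 and 9.01 FPKM after 24 h and 7.18, 7.66 and 8.56 FPKM after 48 h. In B-CKO libraries the levels were 24.97, 22.04 and 21.81 FPKM, then 8.90, 8.21 and 7.83 FPKM and then 6.86, 7.16 and 7.19 FPKM. All 0 h libraries were above all later ones. The log2 difference at 24 h was -1.23 ± 0.0714 in control (adjusted p = 2.91e-05) and -1.36 ± 0.0831 in B-CKO cells (adjusted p = 2.45e-05).

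**Figure D1:**
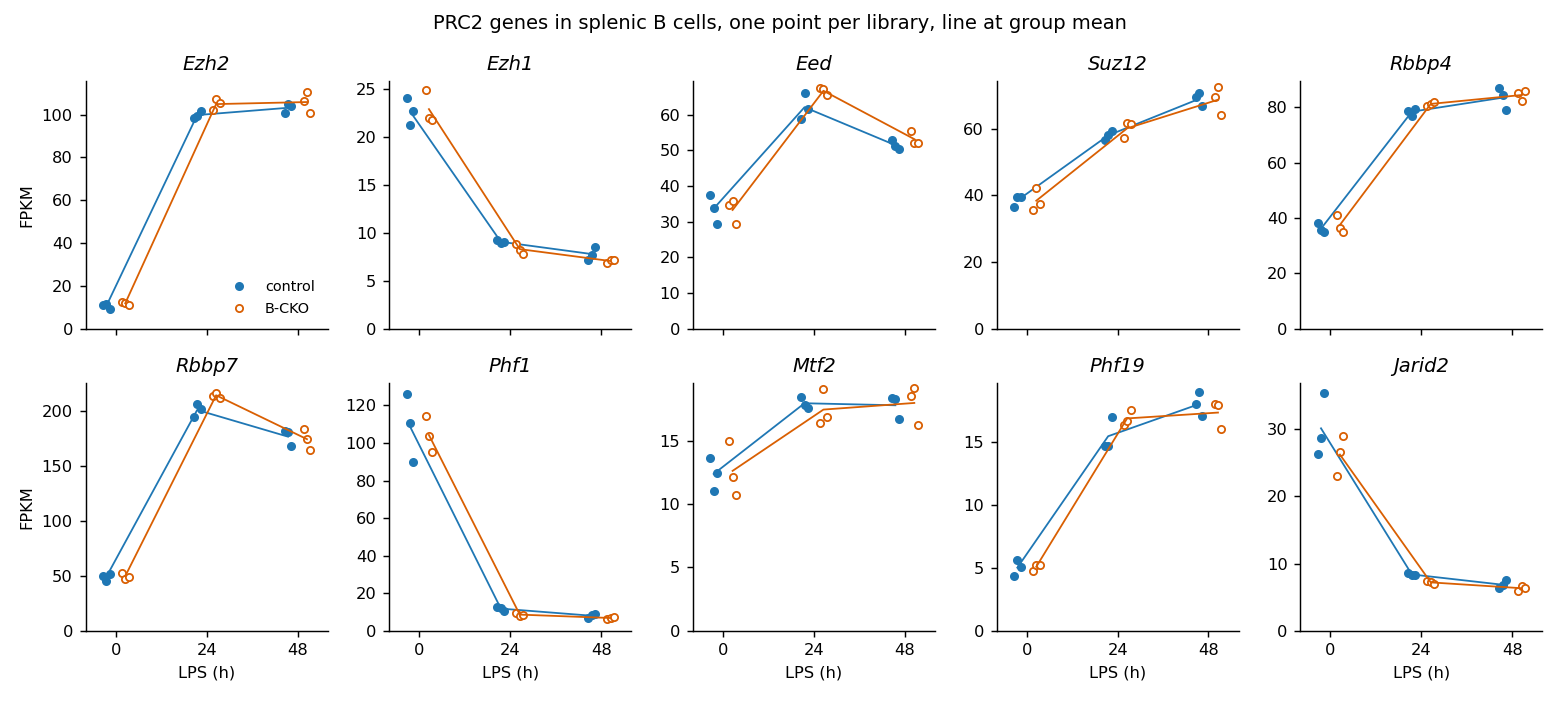
FPKM of the 10 PRC2 genes (y axis, starting at 0 and scaled for each gene) against hours of LPS, with 1 point per library, shifted sideways for legibility, filled for control and open for B-CKO, and lines joining the group means. Ezh2 sits between 9.37 and 12.62 FPKM at 0 h and between 98.59 and 110.60 FPKM later, whereas Phf1, Jarid2 and Ezh1 fall, and the genotypes lie close to each other.

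The 2 enzymes therefore exchanged places in level. Of the summed FPKM of Ezh1 and Ezh2, Ezh2 made up 31.5, 34.8 and 29.2% in the control libraries before LPS, 91.4, 91.7 and 91.8% after 24 h, and 93.3, 93.2 and 92.4% after 48 h. In B-CKO cells the mean share was 34.1 ± 0.753% (SD, n = 3), 92.7 ± 0.591% and 93.7 ± 0.336%. These shares are a description of transcript levels, with no test, and say nothing of protein.

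**Figure D2:**
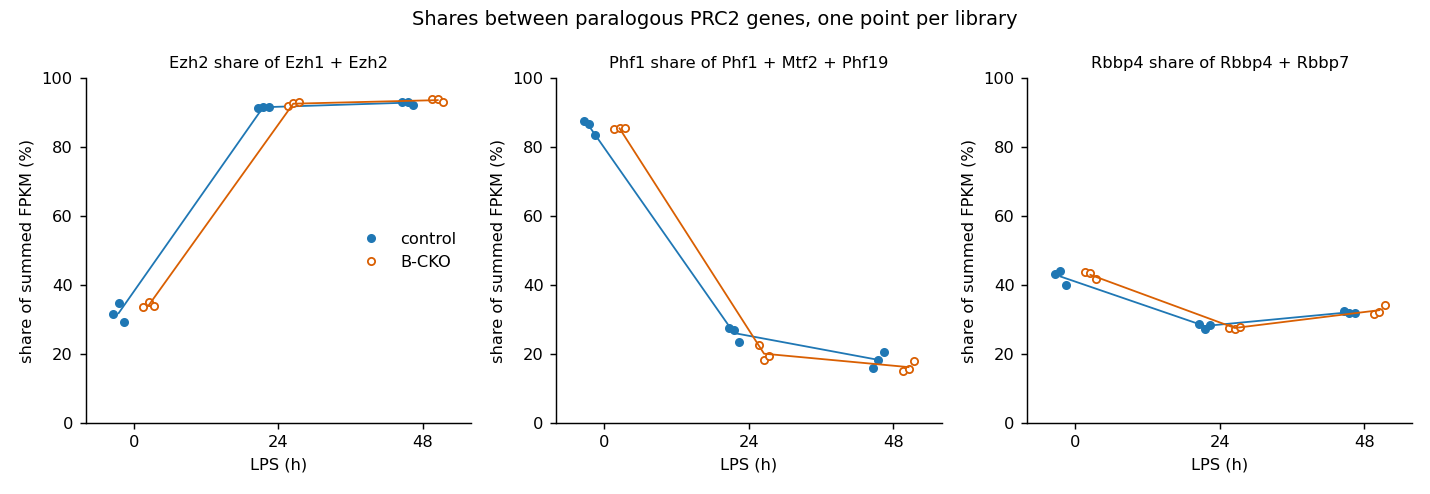
Share of summed FPKM in percent (y axis, 0 to 100) against hours of LPS for Ezh2 among Ezh1 and Ezh2, Phf1 among the 3 Polycomb-like genes, and Rbbp4 among Rbbp4 and Rbbp7, with 1 point per library, shifted sideways for legibility, and lines joining group means. The Ezh2 share is at most 35% in each 0 h library and at least 91.4% in each later library.

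The obligatory partners Eed and Suz12 rose less than Ezh2. Eed, which binds methylated H3K27 and stimulates the enzyme (gene ID 13626, minus strand of chr7:89954654-89980976), measured 37.51, 33.96 and 29.46 FPKM in control cells before LPS, 58.80, 65.92 and 61.44 FPKM after 24 h and 52.77, 51.08 and 50.42 FPKM after 48 h. Levels in B-CKO cells were 34.60, 35.76 and 29.45 FPKM, then 67.49, 67.03 and 65.48 FPKM and then 55.33, 52.01 and 52.00 FPKM. It was highest at 24 h and intermediate at 48 h, with no overlap between times. The 24 h difference was 0.87 ± 0.0981 in control (adjusted p = 0.000445) and 0.99 ± 0.0797 in B-CKO cells (adjusted p = 8.02e-05) on the log2 scale.

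Suz12, the scaffold of the complex (gene ID 52615, plus strand of chr11:79993106-80034123), measured 36.38, 39.44 and 39.53 FPKM in control cells before LPS, 56.64, 58.01 and 59.21 FPKM after 24 h and 69.46, 70.57 and 66.68 FPKM after 48 h. In B-CKO cells it measured 35.63, 42.10 and 37.40 FPKM, then 57.27, 61.56 and 61.41 FPKM and then 69.55, 72.42 and 63.99 FPKM. Unlike Eed, it was highest at 48 h. Its 24 h difference was 0.58 ± 0.0556 in control (adjusted p = 0.000218) and 0.64 ± 0.0745 in B-CKO cells (adjusted p = 0.000426) on the log2 scale.

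The proportions within the core thus shifted with time. The summed level of Ezh1 and Ezh2 was 0.869 ± 0.0838 of that of Suz12 in control cells before LPS, 1.88 ± 0.023 after 24 h and 1.61 ± 0.0693 after 48 h (SD, n = 3). In B-CKO cells the ratio was 0.914 ± 0.128, 1.89 ± 0.047 and 1.65 ± 0.036. Eed over Suz12 was 0.879 ± 0.144, 1.07 ± 0.0568 and 0.747 ± 0.0198 in control cells and 0.869 ± 0.0934, 1.11 ± 0.0593 and 0.775 ± 0.0503 in B-CKO cells. These ratios were not tested.

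Of the histone-binding pair, Rbbp7 rose more than Rbbp4. Rbbp7 (gene ID 245688, plus strand of chrX:162760372-162779090) measured 49.87, 45.13 and 51.96 FPKM in control cells before LPS, 194.64, 205.63 and 201.62 FPKM after 24 h and 181.37, 180.16 and 167.56 FPKM after 48 h. The B-CKO libraries held 52.83, 47.23 and 49.01 FPKM, then 213.60, 216.46 and 211.84 FPKM and then 183.38, 174.47 and 164.40 FPKM. It was the most abundant member at 24 and 48 h in both genotypes. The 24 h difference was 2.01 ± 0.0656 in control (adjusted p = 6.46e-06) and 2.09 ± 0.0551 in B-CKO cells (adjusted p = 2.48e-06) on the log2 scale.

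Rbbp4 (gene ID 19646, minus strand of chr4:129307100-129335370) measured 38.01, 35.55 and 34.81 FPKM in control cells before LPS, 78.76, 76.85 and 79.45 FPKM after 24 h and 86.82, 84.50 and 78.95 FPKM after 48 h. In B-CKO libraries the levels were 41.02, 36.33 and 35.09 FPKM, then 80.50, 81.16 and 81.82 FPKM and then 84.97, 82.36 and 85.79 FPKM. All libraries after LPS exceeded all 0 h libraries, and the log2 difference at 24 h was 1.10 in both genotypes (SE 0.0537 and 0.0674, adjusted p = 1.62e-05 in control and 2.51e-05 in B-CKO cells). The Rbbp4 share of the pair was 42.5 ± 2.08% before LPS, 28.1 ± 0.815% after 24 h and 32.1 ± 0.233% after 48 h in control cells, and 43, 27.5 and 32.7% in B-CKO cells. Both proteins also serve other chromatin complexes, so their transcripts are not a measure of PRC2 alone.

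The 3 Polycomb-like genes of PRC2.1 moved in different directions. Phf1 (gene ID 21652, plus strand of chr17:26933127-26937908) had the largest decrease among the members. It measured 125.88, 110.80 and 89.64 FPKM in control cells before LPS, 12.68, 12.04 and 10.72 FPKM after 24 h and 6.91, 8.33 and 8.80 FPKM after 48 h. Levels in B-CKO cells were 114.24, 103.57 and 94.91 FPKM, then 9.50, 8.01 and 8.32 FPKM and then 6.48, 6.85 and 7.08 FPKM. Phf1 went from the most abundant of the 10 genes at 0 h to one of the 3 least abundant in each later group. The 24 h difference was -3.09 ± 0.134 in control (adjusted p = 1.12e-05) and -3.45 ± 0.0928 in B-CKO cells (adjusted p = 2.48e-06) on the log2 scale. Phf1 overlaps Cuta, Mtf2 overlaps Tmed5, Rbbp4 overlaps Sync and Rbbp7 overlaps Txlng on the opposite strand in GENCODE, and whether counting used strand is not given in the sources used here, so reads of these pairs cannot be told apart.

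Phf19 (gene ID 74016, minus strand of chr2:34893752-34914353), the least abundant member at 0 h, rose. It measured 4.39, 5.61 and 5.09 FPKM in control cells before LPS, 14.73, 14.72 and 17.05 FPKM after 24 h and 18.06, 19.00 and 17.11 FPKM after 48 h. In B-CKO cells it measured 4.74, 5.28 and 5.28 FPKM, then 16.40, 16.74 and 17.61 FPKM and then 18.04, 18 and 16.11 FPKM. No library of 0 h overlapped the later ones. The log2 difference at 24 h was 1.45 ± 0.111 in control (adjusted p = 8.59e-05) and 1.56 ± 0.0767 in B-CKO cells (adjusted p = 1.1e-05).

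Mtf2, also called Pcl2 (gene ID 17765, plus strand of chr5:108065660-108109219), changed least. It measured 13.64, 11.04 and 12.45 FPKM in control cells before LPS, 18.46, 17.85 and 17.57 FPKM after 24 h and 18.38, 18.28 and 16.74 FPKM after 48 h. The B-CKO libraries held 15.01, 12.13 and 10.73 FPKM, then 16.41, 19.09 and 16.88 FPKM and then 18.55, 19.13 and 16.27 FPKM. The 0 h libraries were below the others in both genotypes. The log2 difference at 24 h was 0.51 ± 0.089 in control (adjusted p = 0.00314) and 0.45 ± 0.129 in B-CKO cells (adjusted p = 0.0226). The B-CKO call was lost when values were rescaled to a common library sum (TPM, adjusted p = 0.0875), without 0 h replicate 2 (adjusted p = 0.069) or 3 (adjusted p = 0.0518) and without 24 h replicate 2 (adjusted p = 0.0851) or 3 (adjusted p = 0.0576).

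Phf1 therefore dominated the Polycomb-like genes only before LPS. Its share of the summed FPKM of the 3 genes was 86 ± 2.08% before LPS, 26.1 ± 2.15% after 24 h and 18.3 ± 2.35% after 48 h in control cells, and 85.5 ± 0.19%, 20.1 ± 2.16% and 16.2 ± 1.54% in B-CKO cells (SD, n = 3). Phf19 went from 4.07 to 34.2 and 41.1% in control cells, and from 4.22 to 39.4 and 41.2% in B-CKO cells. Mtf2 went from 9.92 to 39.7 and 40.6%, and from 10.3 to 40.6 and 42.6%. The shares depend on each other, since they sum to the whole, and were not tested.

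Jarid2, the cofactor of PRC2.2 that binds nucleosomes (gene ID 16468, plus strand of chr13:44730774-44921643), fell. It measured 26.34, 28.69 and 35.40 FPKM in control cells before LPS, 8.64, 8.26 and 8.27 FPKM after 24 h and 6.31, 6.76 and 7.50 FPKM after 48 h. In B-CKO libraries the levels were 23.06, 26.67 and 28.97 FPKM, then 7.36, 7.32 and 6.94 FPKM and then 5.88, 6.70 and 6.43 FPKM. Every 0 h library was above every later one. The log2 difference at 24 h was -1.72 ± 0.115 in control (adjusted p = 5.01e-05) and -1.73 ± 0.0946 in B-CKO cells (adjusted p = 1.63e-05).

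The order of levels was rebuilt between 0 and 24 h. In control cells at 0 h it ran from Phf1 (109 FPKM) through Rbbp7 (49), Suz12 (38.4), Rbbp4 (36.1), Eed (33.6), Jarid2 (30.1), Ezh1 (22.7), Mtf2 (12.4) and Ezh2 (10.6) to Phf19 (5.03), as means of 3 libraries. The ranges of Suz12 and Rbbp4, Rbbp4 and Eed, Eed and Jarid2, and Mtf2 and Ezh2 overlapped, so these neighbours did not differ beyond their spread. At 24 h the order was Rbbp7 (201 FPKM), Ezh2 (99.8), Rbbp4 (78.4), Eed (62.1), Suz12 (58), Mtf2 (18), Phf19 (15.5), Phf1 (11.8), Ezh1 (9.08) and Jarid2 (8.39), where the ranges of Eed and Suz12 alone overlapped among neighbours. At 48 h Suz12 (68.9 FPKM) stood above Eed (51.4) and Phf19 (18.1) beside Mtf2 (17.8). The last 3 places at 48 h, Phf1 (8.01 FPKM), Ezh1 (7.8) and Jarid2 (6.86), overlapped from neighbour to neighbour.

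Markers of T cells and part of those of other cells also fell between 0 and 24 h. All 9 T cell markers fell in both genotypes, where 30.7% of all genes fell in control and 32.3% in B-CKO cells, and their summed level was 23.9 to 35.2 FPKM at 0 h and 9.3 to 15.3 FPKM later, with none of the 9 at 0 in any group. Lck made up most of each sum, with control means of 20.7 FPKM at 0 h and 12 FPKM at 24 h. The other T cell markers fell by a larger factor, for example Cd3g from 1.69 to 0.2 FPKM in control cells. Of 6 erythroid markers tested in control cells 4 fell and 1, Hbb-bt, rose (mean 2.86 to 7.58 FPKM), of 7 in B-CKO cells 3 fell and none rose, and the sum over the list was 11.9 to 71.3 FPKM at 0 h and 7.65 to 16.6 FPKM later. Of 8 myeloid markers 3 fell and 1 rose in control cells, and 4 fell and 1 rose in B-CKO cells. The one that rose was Itgam (0.79 and 0.73 on the log2 scale, adjusted p = 0.00245 and 0.00089), and the summed myeloid levels of 9.17 to 15 FPKM at 0 h and 6.55 to 13.5 FPKM later overlapped. Of 6 plasma cell markers 2 rose and 3 fell in control cells and 2 rose and 4 fell in B-CKO cells, with sums of 243 to 421 FPKM at 0 h, 135 to 154 FPKM after 24 h and 194 to 316 FPKM after 48 h. The 6 B cell markers summed to 3944 to 5230 FPKM at 0 h and 2045 to 2648 FPKM later. The part of these shifts in the PRC2 results was not tested, and in bulk RNA fewer cells of a type and less RNA per cell cannot be told apart. Leaving out any 1 library kept all 10 calls in control cells, with Ezh2 between 3.04 and 3.17 and Phf1 between -3.22 and -2.98 on the log2 scale.

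From 24 to 48 h the changes were smaller. In control cells 4 of the 6 members called went on in their earlier direction, whereas Eed and Rbbp7 turned, and by the sign of the estimate 7 of 10 members kept their direction. In control cells 2 of the 10 genes rose and 4 fell, where 20.1% of all genes rose and 24.8% fell. Suz12 rose (0.25 ± 0.0333 on the log2 scale, adjusted p = 0.0012) and so did Phf19 (0.21 ± 0.0683, adjusted p = 0.0437). Phf1 (-0.51 ± 0.0972, adjusted p = 0.0052), Eed (-0.27 ± 0.0462, adjusted p = 0.00353), Jarid2 (-0.26 ± 0.0681, adjusted p = 0.0193) and Rbbp7 (-0.19 ± 0.0417, adjusted p = 0.0104) fell. Ezh2, at 0.048 ± 0.0294 (adjusted p = 0.243), did not pass, nor did Ezh1 at -0.20 ± 0.0677 (adjusted p = 0.0509), Rbbp4 at 0.088 ± 0.0406 (adjusted p = 0.125) or Mtf2 at -0.013 ± 0.0472 (adjusted p = 0.847).

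Some of these calls were lost when 1 library was left out, while the estimates kept their direction. Phf19 stayed at 0.17 to 0.28 and Jarid2 at -0.32 to -0.21 on the log2 scale. Phf19 did not pass without any 1 of 5 of the 6 control libraries (adjusted p = 0.0509 to 0.136, the exception being 24 h replicate 3), and Jarid2 did not pass without any one of the 24 h libraries or without 48 h replicate 2 (adjusted p = 0.0512 to 0.0679). Phf19 was also lost with TPM (adjusted p = 0.113), the replicate block (adjusted p = 0.104) and the single fit of 18 libraries (adjusted p = 0.0706), and Jarid2 with that single fit (adjusted p = 0.0695). Rbbp4 passed without 48 h replicate 3 (adjusted p = 0.024). Ezh1 lay close to the threshold and passed without that library and in 5 of the other alternatives, among them TPM (adjusted p = 0.0276) and genes averaging 1 FPKM or more (adjusted p = 0.0201), with a range of 0.0157 to 0.139 over all alternatives. Suz12, Phf1, Eed and Rbbp7 passed in each of these fits.

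In B-CKO cells 1 of the 10 genes rose and 4 fell, against 21.7% and 24% of all genes, and again Eed and Rbbp7 were the members called that turned (estimates of 8 of 10 members kept their sign). Suz12 rose (0.19 ± 0.0542 on the log2 scale, adjusted p = 0.0268), and Eed (-0.32 ± 0.0361, adjusted p = 0.000429), Rbbp7 (-0.30 ± 0.0452, adjusted p = 0.00176), Phf1 (-0.30 ± 0.0757, adjusted p = 0.0163) and Ezh1 (-0.21 ± 0.0636, adjusted p = 0.0353) fell. With the replicate number as a block, 3 were called (Eed, Phf1 and Rbbp7), and Ezh1 (adjusted p = 0.0792) and Suz12 (adjusted p = 0.05) no longer passed. Ezh1 was also lost without any one of the libraries except 24 h replicate 3 (adjusted p = 0.0528 to 0.112), Suz12 without any one except 48 h replicate 3 (adjusted p = 0.0557 to 0.0943), and Phf1 without 48 h replicate 1 (adjusted p = 0.0595) and in the single fit of 18 libraries (adjusted p = 0.0649). Suz12 was also lost with TPM (adjusted p = 0.168). Without 1 library the estimates stayed at -0.24 to -0.16 for Ezh1, 0.15 to 0.24 for Suz12 and -0.34 to -0.23 for Phf1. Jarid2, at -0.16 ± 0.0665 (adjusted p = 0.0886), and Phf19, at 0.036 ± 0.0569 (adjusted p = 0.654), did not pass in B-CKO cells.

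**Figure D3:**
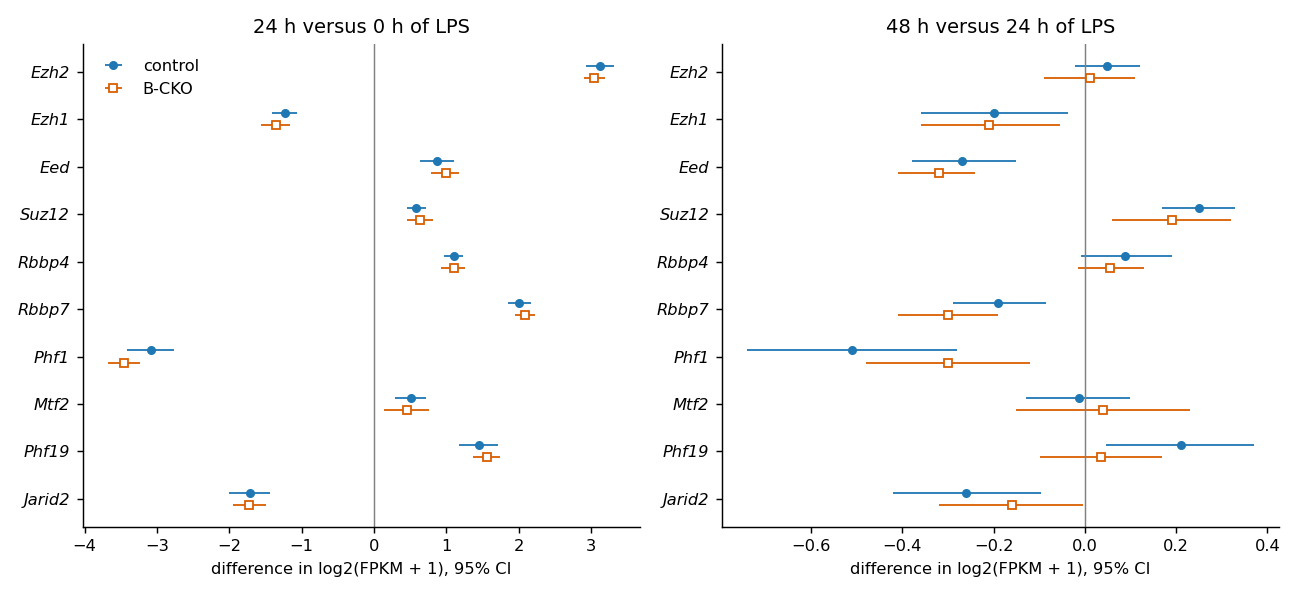
Log2 difference in FPKM + 1 (x axis) with its 95% confidence interval for each PRC2 gene, 24 h against 0 h on the left and 48 h against 24 h on the right, filled circles for control and open squares for B-CKO. The axes of the panels differ in scale, from -3.45 for Phf1 to 3.12 for Ezh2 on the left and from -0.51 for Phf1 to 0.25 for Suz12 on the right.

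Whether the loss of Zbtb24 altered the genes themselves was asked by comparing B-CKO with control cells at each time. At 0 h none of the 10 genes was called and 0% of 15641 genes were (313 had an unadjusted p under 0.05, none of them a member). The log2 differences ran from -0.19 for Jarid2 (95% interval -0.52 to 0.15) to 0.15 for Ezh2 (-0.12 to 0.43), with a median of 0.016. No member had its 3 B-CKO libraries all above or all below the 3 control libraries, as did 1.92% and 1.94% of all genes. Same-numbered 0 h libraries deviated together, and within these pairs Ezh2 and Rbbp4 were higher in B-CKO in 3 of 3 (10.2% of all genes were) and Jarid2 was lower in 3 of 3 (11.4% of all genes). With the replicate block none of the 10 was called, and over all alternatives the adjusted p of Jarid2 was 0.612 to 1 and that of Ezh2 0.7 to 1. None was called without the libraries numbered 1 of both genotypes either, an alternative chosen after seeing the data, where Jarid2 was at -0.19 and Ezh2 at 0.14.

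At 24 h no member passed either, where 0.0993% of 15104 genes did. Before adjustment 5 members had a p under 0.05, as did 2463 of all genes. Phf1 differed most, with control libraries at 10.72 to 12.68 FPKM and B-CKO libraries at 8.01 to 9.50 FPKM, a mean 27.1% lower and a log2 difference of -0.42 ± 0.0802 (95% interval -0.61 to -0.22, adjusted p = 0.0986). Jarid2 was at -0.19 ± 0.0454 (adjusted p = 0.129), with control libraries at 8.26 to 8.64 FPKM and B-CKO libraries at 6.94 to 7.36 FPKM. Rbbp7 was at 0.093 ± 0.0277 (adjusted p = 0.18), Ezh2 at 0.071 ± 0.0264 (adjusted p = 0.251) and Eed at 0.10 ± 0.0425 (adjusted p = 0.298).

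The groups at 24 h did not overlap for 6 members. Rbbp7, Rbbp4 and Ezh2 were higher in all B-CKO than in all control libraries (3 of 10 members, 8.43% of all genes), and Phf1, Ezh1 and Jarid2 were lower (3 of 10, 11.7% of all genes). When genes averaging less than 1 FPKM were dropped, 4% of 9711 genes were called and Phf1 was among them (adjusted p = 0.018). With the replicate block added to that limit, Phf1 (adjusted p = 0.0104) and Jarid2 (adjusted p = 0.0466) were called, although same-numbered 24 h libraries deviated together only weakly (r 0.09 to 0.224) and are not taken as pairs. Over all alternatives the adjusted p of Phf1 ran from 0.0104 to 0.544 and that of Jarid2 from 0.0466 to 1. The summed level of 16 replication and cell cycle genes at 24 h was 1851 to 1980 FPKM in the control libraries and 2043 to 2251 FPKM in the B-CKO libraries. The summed B cell markers at 24 h were separate too, at 2351 to 2530 FPKM in control and 2045 to 2120 FPKM in B-CKO libraries. So were the summed T cell markers, at 13 to 15.3 FPKM in control and 10.4 to 11.9 FPKM in B-CKO libraries. Lck made up most of each T cell sum (means of 12 and 8.9 FPKM). By their means Zap70 and Il7r were also lower in B-CKO cells, whereas Cd3d, Cd3e, Cd3g, Cd4, Cd8a and Cd8b1 were higher. None of the 9 T cell markers was called, with a median log2 difference of 0.037. The part of these lists in the differences was not tested.

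At 48 h no member passed, where 0.046% of 15210 genes did, and no member had an unadjusted p under 0.05 (1172 of all genes had). Phf1 was at -0.20 (95% interval -0.43 to 0.02, adjusted p = 0.679) and Ezh1 at -0.12 (-0.30 to 0.059, adjusted p = 0.79). Of the other 8, the log2 differences lay between -0.098 for Jarid2 and 0.045 for Eed. None had separate groups, whereas 4.89% of all genes lay wholly above and 6.24% wholly below control. Ezh2 was at 0.036 with an interval of -0.07 to 0.14.

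**Figure D4:**
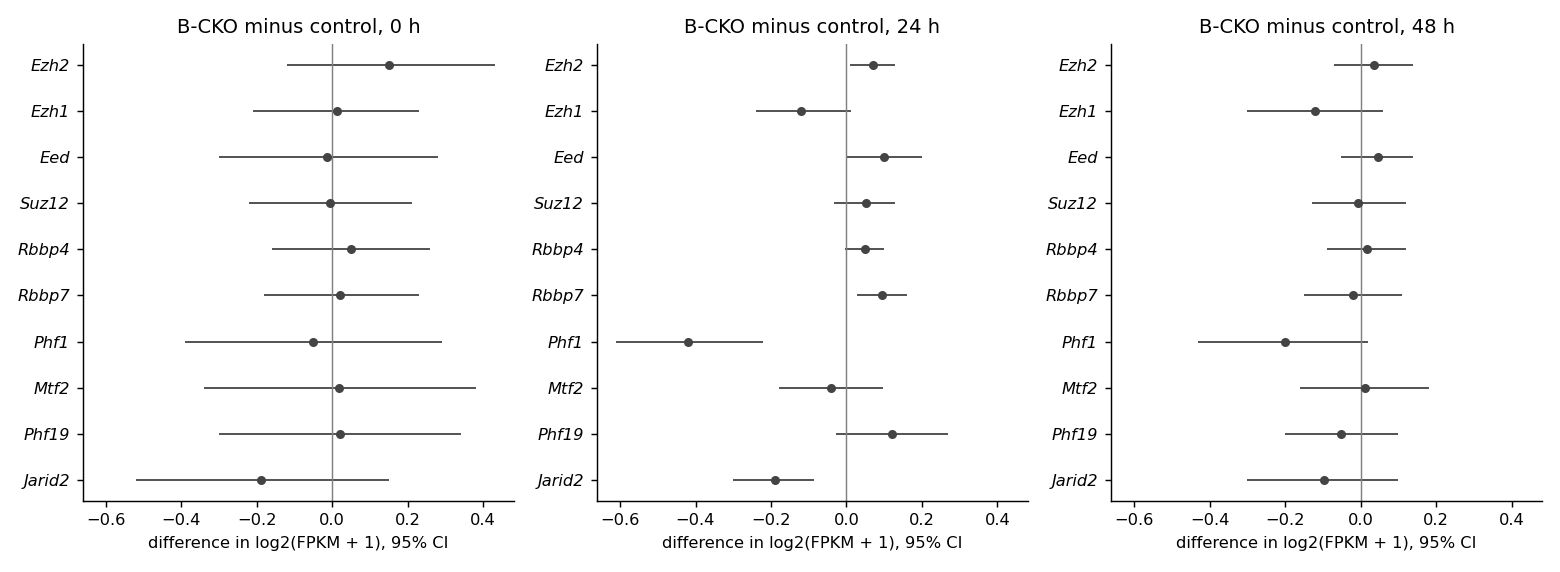
Log2 difference in FPKM + 1 between B-CKO and control cells (x axis) with its 95% confidence interval for each PRC2 gene at 0, 24 and 48 h. Phf1 at 24 h, at -0.42, is the point farthest from 0, and no point passes adjustment over all genes.

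The change with LPS was then compared between genotypes in 1 fit. No member was called between 0 and 24 h, nor was any of 16182 genes (0%), with 467 genes and no member under an unadjusted p of 0.05. Zbtb24, the deleted gene, was not called either, at 1.14 ± 0.188 (limma, adjusted p = 0.583). The lack of calls in this fit therefore does not show that the genotypes changed alike. The largest member estimate was that of Phf1, -0.36 ± 0.172 (95% interval -0.75 to 0.019, adjusted p = 1). Between 24 and 48 h again 0% of 15844 genes were called, with 1158 genes and no member under an unadjusted p of 0.05. Phf1 was at 0.21 ± 0.128 (adjusted p = 0.776) and Phf19 at -0.17 ± 0.0922 (adjusted p = 0.74). The Ezh2 estimates were -0.081 (interval -0.30 to 0.14) and -0.036 (-0.15 to 0.076), so the data leave room for differences of that size.

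Genes that work with PRC2 were read from lists. Of 4 other accessory genes in the table, 2 rose and 2 fell from 0 to 24 h in control cells, where 26.7% of all genes rose and 30.7% fell (median log2 difference -0.035, beside -0.022 over all genes). Epop, a PRC2.1 partner of elongin, rose from 4.65, 4.47 and 5.19 to 18.46, 20.21 and 18.88 FPKM (1.81 ± 0.0853 on the log2 scale, adjusted p = 1.45e-05). Lcor and Lcorl, whose loci also encode the PALI proteins of PRC2.1, fell by 0.96 (SE 0.0883, adjusted p = 0.000187) and 0.83 (SE 0.107, adjusted p = 0.000788) on the log2 scale.

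The enzymes that remove the mark, Kdm6a and Kdm6b, both fell from 0 to 24 h, where 30.7% of all genes fell in control and 32.3% in B-CKO cells. Kdm6b measured 39.35, 157.68 and 257.94 FPKM in control cells before LPS, 10.32, 10.42 and 9.35 FPKM after 24 h and 3.93, 4.85 and 4.19 FPKM after 48 h. The 0 h libraries numbered 1 were lowest in both genotypes. The log2 difference at 24 h was -3.43 ± 0.648 (adjusted p = 0.00439), and -4.20 ± 0.213 (adjusted p = 8.12e-05) without the control 0 h replicate 1. In B-CKO cells it was -3.53 ± 0.625 (adjusted p = 0.00286), and -4.29 without B-CKO 0 h replicate 1. Kdm6a differed by -0.88 in both genotypes (SE 0.109 and 0.0971, adjusted p = 0.000671 and 0.000325).

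Of 23 genes of PRC1, the complex that reads H3K27 methylation and ubiquitinates histone H2A, 8 rose, 7 fell and 8 did not pass in control cells at 24 h, where 26.7% of all genes rose and 30.7% fell. Cbx7, a chromodomain reader, fell from 109.38, 87.15 and 91.17 to 24.25, 22.76 and 24.13 FPKM (-1.96 ± 0.0938 on the log2 scale, adjusted p = 1.5e-05). Pcgf5, a subunit of a variant PRC1, rose (1.20 ± 0.072, adjusted p = 3.26e-05). Of 3 genes of the H2A deubiquitinase PR-DUB in the table, Asxl2 fell (-0.33 ± 0.0893, adjusted p = 0.0191) and the other two did not pass.

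The complexes that share Rbbp4 and Rbbp7 (NuRD, Sin3, CAF-1 and Hat1) had 10 genes that rose and 4 that fell of 14, against 26.7% and 30.7% of all genes, with a median log2 difference of 0.58 beside -0.022 over all genes. The largest were Chaf1a, of the replication-coupled histone chaperone, at 2.7, 3.25 and 3.16 FPKM at 0 h and 39.4, 42.57 and 43.6 FPKM at 24 h (3.41 ± 0.087, adjusted p = 5.17e-06), Chaf1b (2.63 ± 0.102, adjusted p = 8.72e-06) and Hat1, a histone acetyltransferase (2.19 ± 0.106, adjusted p = 1.56e-05). All 16 replication and cell cycle genes rose in both genotypes, where 26.7% of all genes rose in control and 27.5% in B-CKO cells, with a median of 2.89 in control and 3.02 in B-CKO cells. Their examples are Rrm2 (4.55 ± 0.147, adjusted p = 6.46e-06), Ccna2 (3.89 ± 0.164, adjusted p = 1.05e-05) and Top2a (3.73 ± 0.202, adjusted p = 2.29e-05), so the 24 h samples differ from 0 h in these genes together with Ezh2.

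Of 4 genes known to be held down by EZH2 in germinal centre B cells, 2 rose, 1 fell and 1 did not pass at 24 h in control cells, where 26.7% of all genes rose and 30.7% fell. From 24 to 48 h, 3 of the 4 rose and none fell in control cells (median log2 difference 1.03), against 20.1% and 24.8% of all genes, and 3 rose and 1 fell in B-CKO cells (median 1.31), against 21.7% and 24%. Cdkn2a, which encodes cell cycle inhibitors, measured 0.21, 0.08 and 0.07 FPKM in control cells before LPS, 1.5, 1.47 and 1.56 FPKM after 24 h and 6.76, 9.28 and 7.25 FPKM after 48 h, and so rose in both intervals (1.17 ± 0.0612, adjusted p = 2.06e-05, then 1.79 ± 0.111, adjusted p = 6.44e-05). Prdm1, the regulator of plasma cells, rose by 24 h (1.13 ± 0.264, adjusted p = 0.0108) and again by 48 h (1.10 ± 0.225, adjusted p = 0.00701). Irf4 fell (-1.64 ± 0.311, adjusted p = 0.00448), and was at 117.93 FPKM in the control 0 h library numbered 1 against 262.85 and 262.37 FPKM in the others.

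The Hox genes, classical Polycomb targets, remained near 0. Of 39, 27 were in the table and 1 had a mean of at least 1 FPKM, and their summed level was between 1.39 and 3.17 FPKM in all 18 libraries. Hoxa5 alone was called at 24 h in control cells, at 0.1, 0.07 and 0.18 FPKM before and 0, 0.03 and 0 FPKM after. Between genotypes no gene of these Polycomb, chromatin, cell cycle, target and Hox lists was called by limma at any of the 3 times, with an unadjusted p under 0.05 for 0 of 86 genes before LPS, 17 of 86 after 24 h of it and 3 of the 83 tested after 48 h. These are 0, 19.8 and 3.61% of the list genes, beside 2, 16.3 and 7.71% of all genes tested.

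Genes with the pattern most like a member were taken by Pearson's correlation of log2(FPKM + 1) over the 18 libraries, among 9997 genes averaging 1 FPKM or more. The libraries fall into 3 times, and differences between 0 h and later dominate each correlation, so the values are descriptions. Nearest to Ezh2 were Uhrf1, Rad54l and Atp5b, each at 0.999, and Uhrf1 went from 6.01 to 134 and 146 FPKM in control cells. Nearest to Ezh1 were another member, Phf1 (0.996), and Vezf1 (0.996) and Cbx7 (0.995). Nearest to Eed was Mrpl15 (0.995), to Suz12 Gen1 (0.991), to Jarid2 Itpr2 (0.997), to Phf1 Pxk (0.998), to Phf19 Ncapg2 (0.996), to Mtf2 Gm3604 (0.969), to Rbbp4 Nudcd2 (0.998) and to Rbbp7 Sfxn1 (0.998). The 3 members that fell correlated with each other at 0.985 to 0.996, and with Ezh2 at -0.989 to -0.985.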

How the data were processed

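Splenic B cell libraries were sequenced as paired reads by the study. The authors mapped reads to mm10 with bowtie2, used Cufflinks and RSEM, and deposited FPKM, normalized for transcript length and library size, with 2 decimals. Tool versions and annotation are not given in the sources used here, which name different sequencers. NCBI gene IDs were matched to RefSeq GRCm38.p6 symbols (16512 of 16545). Groups came from the labels. log2(FPKM + 1) of genes above 0 in any compared library was tested with limma 3.58.1 (R 4.3.3, lmFit, eBayes with a trend, adjusted p under 0.05), because the DESeq2 test that the authors used needs counts. FPKM summed to 453150 to 563456 per library. Total depth is unknown, and 68.7% of nonzero values of 64 low genes were whole steps within 5%, too few to recover reads. Data were simulated with normal noise drawn separately for each library, from the SD of each gene in its group. Changes were planted only in genes averaging above 1 on the log2 scale. Genes changed 1.5-fold were recovered in 90.3% between genotypes at 24 h (22 false calls of 213 over all folds). For 24 h against 0 h in control cells 62.1% were recovered (43 of 206). For the genotype difference in that change it was 44.3% (66 of 213). False calls exceeded the nominal 5% in each simulation. Deviations shared by same-numbered libraries were not simulated, so these rates need not hold for the study's data. There Zbtb24, at -0.64 between genotypes at 24 h, was not called (limma, adjusted p = 0.0586).

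Members and lists were chosen with earlier results of these data known. Named list genes are the up to 3 with the largest absolute change from 0 to 24 h in control cells among those called, plus any called between genotypes. Values of 3 genes of the lists are not reported here. Same-numbered libraries deviated together at 0 h between genotypes (r 0.474 to 0.857). Between 24 and 48 h they did so only weakly in B-CKO cells (r 0.114 to 0.182), beside r -0.064 to 0.157 in control cells. No label says what a number shares. Alternatives were a pseudocount of 0.1, a mean of at least 1 FPKM, TPM, median ratio scaling, the replicate block, a single fit of 18 libraries and leaving out each library.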

Additional observations from a re-analysis of the deposited data

How the results depend on the processing

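The 10 calls from 0 to 24 h in control cells held in all 130 values recomputed, and 125 of 130 did in B-CKO cells. Between genotypes at 24 h, 1 gene was called among genes averaging 1 FPKM or more and 2 with the replicate block added. From 24 to 48 h, the replicate block gave 3 called genes in B-CKO cells, and leaving out a library gave 2 to 4 there and 4 to 7 in control cells. The block alone also ended the call of Phf19 from 24 to 48 h in control cells (adjusted p = 0.104) and changed no other call.

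Estimates near 0 changed sign. At 0 h between genotypes, scaling to TPM gave -0.00012 for Ezh1, median ratio scaling gave 0.00084 for Eed and 0.0095 for Suz12, and leaving out both libraries numbered 1 gave -0.0066 for Ezh1, 0.036 for Eed, 0.007 for Suz12, -0.015 for Phf19, -0.036 for Mtf2 and -0.0092 for Rbbp7. At 48 h, median ratio scaling gave 0.0024 for Suz12, and TPM gave -0.011 for Mtf2 and -0.0068 for Rbbp4. From 24 to 48 h, median ratio scaling gave 0.009 for Mtf2 in control cells, and TPM gave -0.042 for Ezh2, -0.016 for Phf19 and -0.012 for Mtf2 in B-CKO cells. The cause was not tested.

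Leaving out 1 library at a time gave, at 0 h between genotypes, -0.048 to 0.053 for Ezh1, -0.10 to 0.069 for Eed, -0.072 to 0.045 for Suz12, -0.18 to 0.06 for Phf1, -0.058 to 0.089 for Phf19, -0.10 to 0.12 for Mtf2, -0.015 to 0.094 for Rbbp4 and -0.036 to 0.064 for Rbbp7. At 48 h it gave -0.046 to 0.042 for Suz12, -0.032 to 0.079 for Mtf2, -0.022 to 0.046 for Rbbp4 and -0.057 to 0.021 for Rbbp7. From 24 to 48 h it gave -0.036 to 0.028 for Mtf2 in control cells, and -0.02 to 0.047 for Ezh2 and -0.0039 to 0.11 for Mtf2 in B-CKO cells. For the genotype difference in the change it gave -0.12 to 0.083 for Jarid2, -0.16 to 0.062 for Mtf2 and -0.044 to 0.066 for Rbbp4 from 0 to 24 h, and -0.058 to 0.055 for Ezh1 from 24 to 48 h. None of these was called in any such fit. Total read depth is unknown, so counting error could not be given.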
